A study of Sus scrofa with 8 samples.

Results

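The genes described here carry the insulin and insulin-like growth factor signal into the heart cell, and with it the AKT, AMPK and mTOR branches. They were chosen by name: of 53 gene symbols asked for, 48 were found in the expression table, on 54 of its 18975 gene rows, because *INSR*, *IGF1R*, *PIK3R1*, *TBC1D1*, *PRKAA1* and *ULK2* each have 2 rows. The rule goes by symbol and not by a measured value, but the symbols were picked with earlier results of these data known. The table holds FPKM, the read fragments on a gene divided by its exon length and by the library's mapped total, for 8 heart libraries in 4 groups of 2. These are Tibetan pigs raised in the highland (TH) or the lowland (TL) and Yorkshire pigs raised in the highland (YH) or the lowland (YL). All were males aged 6 months. The labels' descriptions of the YL libraries refer to a file of the TL group, and groups were taken from the sample titles and the matching columns of the table. Breed was compared within each place (TH against YH, TL against YL) and place within each breed (TH against TL, YH against YL). By the study's methods, RNA of several pigs went into each library in equal amounts, so 2 libraries of the same group differ as pools do, and how single animals differ cannot be read from them. In bulk heart tissue, fewer cells of a type and less RNA per cell cannot be told apart.

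Insulin or an insulin-like growth factor binds its receptor tyrosine kinase, which phosphorylates adaptor proteins such as IRS1. The adaptors recruit PI3K, whose lipid product brings AKT to PDPK1, and active AKT restrains GSK3, TSC2 and the Rab regulators that hold glucose transporters inside the cell. Through TSC and RHEB the same signal reaches mTOR, which favors protein synthesis, whereas AMPK responds to falling energy charge, restrains mTOR and turns on ULK1, the kinase that starts autophagy. In the heart this network sets glucose uptake, glycogen storage and growth of the muscle cell.

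The number of reads on genes ran from 15686815 to 26722611 per library. Of 12 heart muscle markers 10 were found, with a summed level of 16639 FPKM in YL2 and 26283 to 44421 FPKM elsewhere; *MYH6* among them was at 2.60 FPKM in YL2, 18.4 to 20.6 in TH and 75.1 to 246 in the other libraries. YL2 stood apart: the summed FPKM of the kidney list, of which 14 of 17 genes were found, was 4959 there and 2.49 to 19.4 in the other 7 libraries. TH1 had the highest share of FPKM on mitochondrially encoded genes, 87.6%, against a lowest share of 57.7% in YH2. The summed atrial chamber list (4 of 5 genes found) was 5376 to 6611 FPKM in TH and 389 to 2608 FPKM elsewhere, and the summed early-response list (11 of 13 genes found), which holds genes such as *FOS*, was 562 to 778 FPKM in Tibetan and 117 to 179 FPKM in Yorkshire libraries. Of the atrial genes, *NPPA*, *MYL7* and *SLN* were higher in both TH libraries than in all others, and *MYL4* was 6.73 to 7.59 FPKM in TH and 2.09 to 21.4 FPKM elsewhere. The summed immune cell list (7 of 7 genes found) was 29.2 and 36.1 FPKM in YH and 14.8 to 19.0 FPKM elsewhere. *PTPRC*, *CD3E*, *CD4*, *CD8A* and *CSF1R* were higher in both YH libraries than in all others. *CD14* was 5.31 and 8.32 FPKM in YH and 3.78 to 9.68 FPKM elsewhere, and *CD79A* 0.715 and 1.12 FPKM in YH and 0.610 to 1.45 FPKM elsewhere. In TH the summed red blood cell list (4 of 5 found) was 1629 to 3100 FPKM, against 526 to 1402 FPKM elsewhere, and the smooth muscle list (4 of 4 found) 304 to 327 FPKM, against 81.7 to 199.8 FPKM. Of the smooth muscle genes only *TAGLN* and *CNN1* were higher in both TH libraries than in all others; *MYH11* was 0.388 and 2.69 FPKM in TH and 1.88 to 4.87 FPKM elsewhere. The skeletal muscle list (4 of 8 found) was 21391 to 30008 FPKM in TH and 5833 to 15576 FPKM elsewhere. Nearly all of it was *ACTA1*, an actin that heart muscle also expresses, at 30005 FPKM in TH1; *MYH1* and *MYH2* were at or near 0 in all libraries and *TNNC2* was at most 3.41 FPKM. The fibroblast list (5 of 5 found) was lowest in TH1, at 169 FPKM against 624 in TH2, 588 to 762 in TL and 211 to 366 in the Yorkshire libraries. *COL3A1*, *DCN*, *PDGFRA* and the lower row of *COL1A1* were lowest in TH1. The higher row of *COL1A2* was at 32.7 FPKM there, above the 15.4 to 17.9 FPKM of the Yorkshire libraries. The higher row of *COL1A1* was at 43.3 FPKM in TH1 and 34.6 FPKM in YL1. The part of these differences in the results below was not tested.

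No member passed the test in any comparison. The test was limma on log2(FPKM + 1), over all 11913 genes that reached 1 FPKM in 2 or more libraries, with Benjamini-Hochberg adjustment. A call needed a log2 difference beyond 1 in either direction together with an adjusted p below 0.01. Of the 54 member rows, 50 rows, of 46 symbols, were tested, and the other 4 (*CBL*, *PIK3CD* and the lower row each of *IGF1R* and *PIK3R1*) were below that level. The test called 0 members between TH and YH, where it called 0.0336% of all genes, and 0 between TL and YL, where it called 0.00839%. It called 0 members between TH and TL (0.0504% of all genes) and 0 between YH and YL (0% of all genes). Over the other contrasts it called 0 members in the interaction, the breed difference in the highland minus that in the lowland (0.0336% of all genes), 0 in the breed difference averaged over both places, the breed average (0.0504%), and 0 in the highland minus lowland difference averaged over both breeds, the altitude average (0.0336%). At an unadjusted p under 0.05, 8 of the 50 members (16.0%) differed between TH and YH, against 16.2% of all genes, and 4 (8.0%) between TL and YL, against 8.94%. Between TH and TL the figure was 6 members (12%), against 11.3% of all genes, and between YH and YL it was 4 (8.0%), against 5.97%. In the interaction it was 4 (8.0%, against 10.9%), in the breed average 6 (12%, against 13.5%) and in the altitude average 3 (6.0%, against 7.22%). These shares lie near those of all genes. The counts moved when libraries were left out, and so did those over all genes. Between TH and YH it was 3 members without TH1 (9.17% of all genes), 3 without YH1 (7.33%), 5 without YH2 (8.85%) and 13 without TH2 (29.2%). Between TL and YL it was 11 members without YL1 (25.5% of all genes), 2 without TL1 (4.03%) or TL2 (4.0%) and 1 without YH1 or YH2 (6.82% each). Between TH and TL it was 2 without TL2 (5.02% of all genes), 3 without TL1 (4.75%) and 11 without TH2 (22.9%). Between YH and YL it was 1 without YL2 (5.45% of all genes), 2 without YH1 (3.84%) or YH2 (2.18%) and 12 without YL1 (25.3%). In the interaction it was 10 without TH2 (22.8% of all genes) or YL1 (24.9%). In the breed average it was 2 without TL1 (7.52%) or YH2 (8.98%), 3 without TH1 (11.8%) or YH1 (8.08%) and 12 without TH2 (23.9%) or YL1 (25.8%). In the altitude average it was 1 without TL1 (3.51%), TL2 (4.11%) or YH2 (3.29%), 6 without TH2 (12.5%) and 9 without YL1 (21.6%). With libraries scaled to FPKM sums without mitochondrially encoded genes it was 2 members between TH and YH (4.42% of all genes), 0 between TL and YL (3.11%), 1 between TH and TL (2.99%) and 2 between YH and YL (2.0%). On that scale it was 3 in the interaction (3.07%), 1 in the breed average (4.05%) and 1 in the altitude average (2.15%). The libraries of the groups did not overlap for 28 members between TH and YH (52.5% of all genes), 18 between TL and YL (41.5%), 26 between TH and TL (48.5%) and 18 between YH and YL (36.3%).

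Their direction was uneven between TH and YH, and also between YH and YL. All 8 members at an unadjusted p under 0.05 between TH and YH were lower in TH, where the test put 8.47% of all genes on the lower and 7.71% on the higher side. All 4 such members between YH and YL were higher in YH (5.97% of all genes in either direction). All 4 in the interaction were lower, with 7.16% of all genes on the lower and 3.78% on the higher side. The median log2 difference of the 50 members between TH and YH was -0.14, against -0.03 over all genes tested, and 32 of 50 members were lower, against 52.3% of all genes. It was -0.13 without TH1 (31 lower), -0.23 without TH2 (29 lower), -0.22 without YH1 (35 lower) and -0.12 without YH2 (31 lower). With libraries scaled by median ratios the median over all genes moved to -0.13 and that of the members to -0.26, so the distance between them was -0.11 before and -0.13 after this scaling, and it was -0.28 with scaled reads in place of FPKM. Between TL and YL the median of the members was 0.05, against 0.02 over all genes, and 24 of 50 were lower (48.3% of all genes); without YL2 the median of the members was close to 0, with 25 lower. Between YH and YL it was 0.14, against 0.03, with 15 lower (45.9% of all genes); without YL2 it was 0.08, against 0.06, with 17 lower, and without YH2 21 were lower. Between TH and TL it was -0.05, against -0.02, with 29 lower (51.9%) and 25 lower without TH1. This median of the members was -0.0089 without TH1 and -0.10 without TH2.

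**Figure D1:**
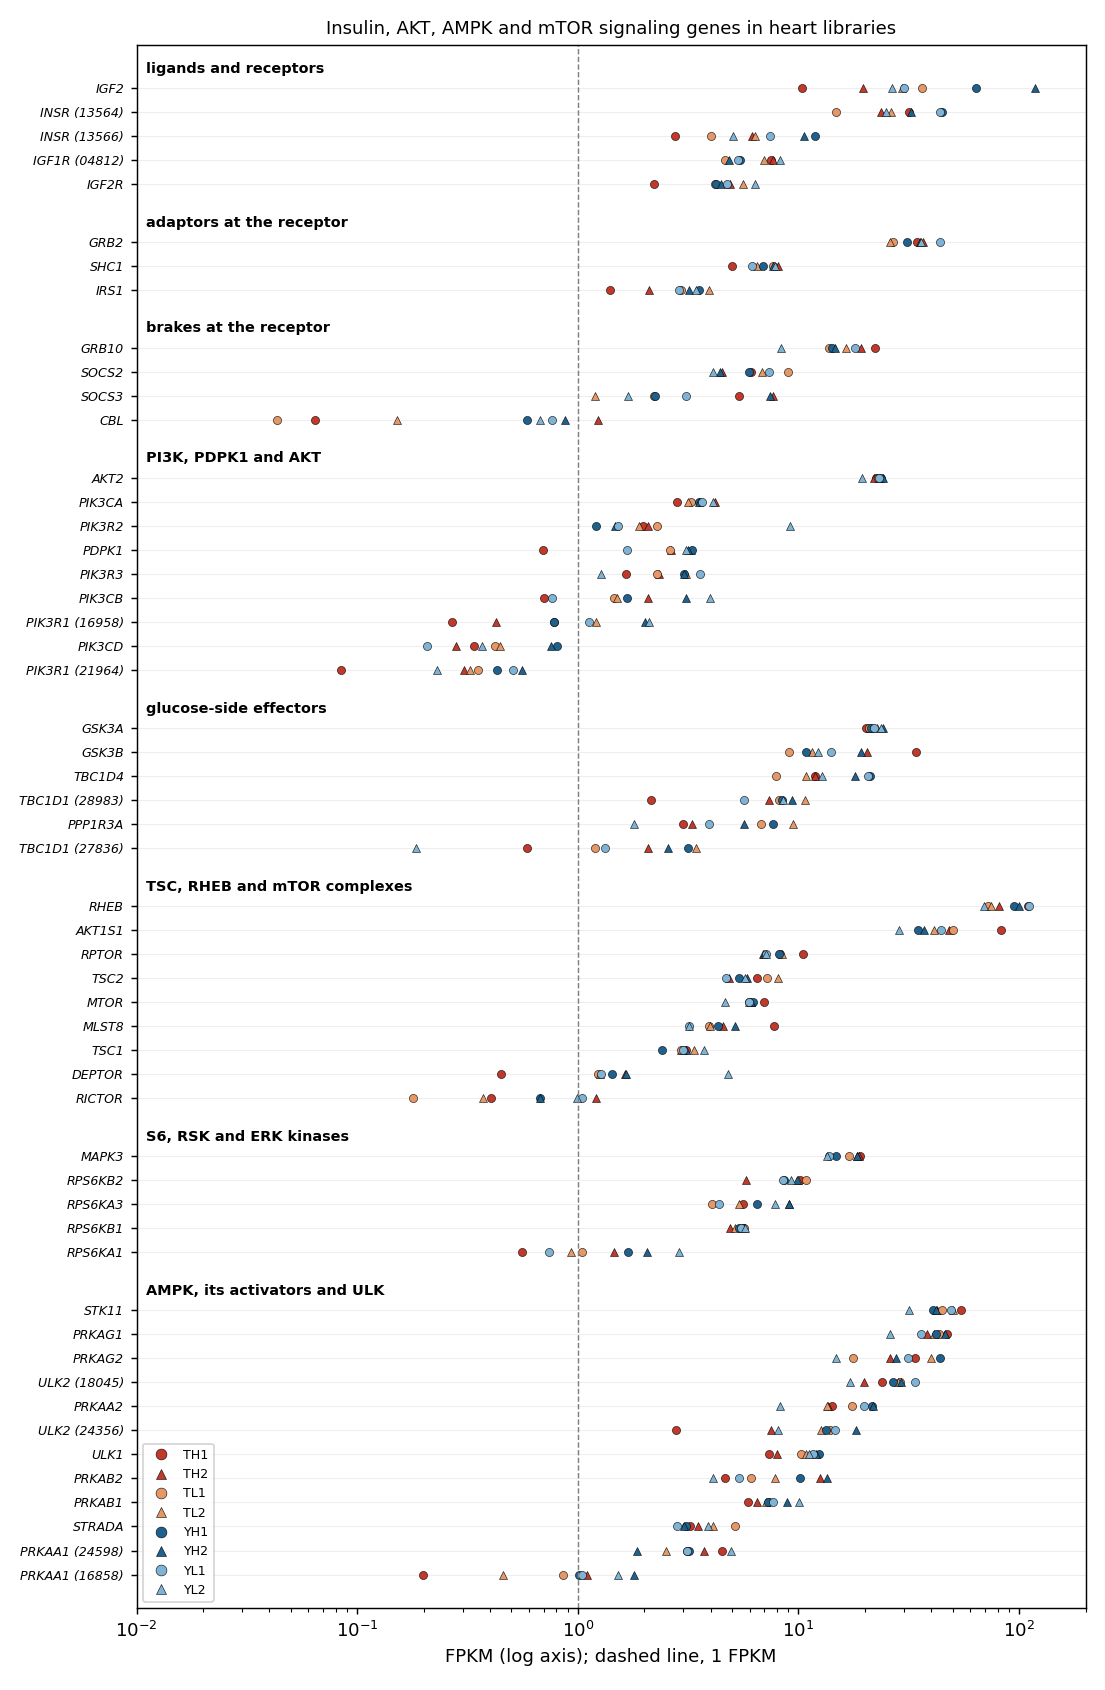
FPKM (log axis) of the member genes in the 8 libraries, by role; each point is 1 library, and digits after a symbol are the end of its gene ID where a symbol has 2 rows (the *IGF1R* row that was close to 0 in all libraries is left out). *RHEB* has the highest mean, with libraries at 69.4 to 111 FPKM, and *AKT2*, *GSK3A* and *RPS6KB1* vary least, whereas either TH1 or YL2 lies far from the rest in *PDPK1*, *PIK3R2* and *DEPTOR*.

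Levels spanned a wide range (the plot of members by role). On the mean over 8 libraries, 22 of the 54 rows were under 5 FPKM, 21 lay between 5 and 20 FPKM and 11 were at 20 FPKM or more. The highest mean was that of *RHEB*, the small GTPase that switches mTOR on. It was at 110 and 81.4 FPKM for TH, 72.2 and 74.7 for TL, 95.3 and 99.5 for YH, and 111 and 69.4 for YL. *RHEB* exceeded the next, *AKT1S1*, in every library. Means of *AKT1S1*, *STK11* and *PRKAG1*, 45.8, 44.4 and 40.0 FPKM, lay closer together than the spread of *AKT1S1* over libraries. The median coefficient of variation (CV) over the 8 libraries was 29.5% for the members tested and 30.8% for all genes tested, and without YL2 it was 24.9% and 27.2%. A CV under 10% was found for 3 members, 6.0% of those tested, against 2.31% of all genes, and without YL2 for 6 members (12%), against 4.45% of all genes.

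Among the ligands and receptors, *IGF2*, the fetal growth factor that signals through the IGF1 and insulin receptors, had the smallest p of any member between TH and YH. Its row (ENSSSCG00000024883, scaffold GL896425.1, 1 to 2416, Sscrofa10.2) was at 10.4 and 19.6 FPKM for TH, 36.3 and 29.5 FPKM for TL, 64.0 and 118 FPKM for YH, and 30.2 and 26.4 FPKM for YL. Both YH libraries lay above the other 6, and both TH libraries below them. The mean was 15.0 ± 6.51 FPKM (SD, n = 2) in TH and 90.9 ± 38.0 FPKM (SD, n = 2) in YH, a log2 difference of -2.52 ± 0.39 (SE; limma adjusted p = 0.0691). Between TL and YL the libraries of *IGF2* overlapped, and the log2 difference was 0.21 in FPKM and -0.16 in scaled reads. Averaged over both places the breed difference of *IGF2* was thus -1.16 in FPKM, and only its highland part was negative. The interaction of *IGF2* was -2.72 ± 0.55 (SE; limma adjusted p = 0.261). YH exceeded YL by 1.59 on the log2 scale (SE 0.39, limma adjusted p = 0.647) and TH differed from TL by -1.14 (SE 0.39, limma adjusted p = 0.344), which was -0.71 without TH1.

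The depth behind *IGF2* was thin. The number of its reads was 5 and 8 for TH, 20 and 19 for TL, 37 and 71 for YH, and 16 and 27 for YL, whereas a row of *INSR* at 44.8 FPKM in YH1 had 4841 reads. Its FPKM is therefore a large value on few reads, and its level should not be ranked against those of other genes. In reads, too, both TH libraries were the lowest and both YH libraries the highest, and with scaled reads in place of FPKM the log2 difference between them was -2.54 (limma adjusted p = 0.117). In FPKM the log2 difference between TH and YH was -2.09 without TH1.

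*INSR*, the insulin receptor, has 2 rows on chromosome 2 of Sscrofa10.2, at 72388087 to 72425053 (ENSSSCG00000013564) and at 72275693 to 72357630 (ENSSSCG00000013566). The first was at 31.8 and 23.7 FPKM for TH, 14.8 and 26.3 for TL, 44.8 and 32.3 for YH, and 43.6 and 24.8 for YL. The second was at 2.77 and 6.15 FPKM for TH, 4.03 and 6.36 for TL, 11.9 and 10.6 for YH, and 7.44 and 5.02 for YL. On both rows the YH libraries were above the TH libraries, without overlap. For the second row the log2 difference between TH and YH was -1.24 ± 0.37 (SE; limma adjusted p = 0.199), and without TH1 it was -0.78. Averaged over both places the breed difference of that row was -0.73 ± 0.26 (SE; limma adjusted p = 0.298), with overlapping libraries.

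*IGF1R*, the receptor for both insulin-like growth factors, was at 7.54 and 7.68 FPKM for TH, 4.63 and 6.98 for TL, 5.40 and 4.86 for YH, and 5.30 and 8.23 for YL (ENSSSCG00000004812). Unlike *INSR* and *IGF2*, it was higher in both TH libraries than in both YH libraries, with a log2 difference of 0.49. *IGF2R*, which binds IGF2 and takes it into the cell to be degraded, ran from 2.22 FPKM in TH1 to 6.35 FPKM in YL2. *IGF1* was not found under that name. A row with its older name IGFI, which the rule leaves out, was at 0.991 FPKM in YL2 and 2.90 to 5.98 FPKM in the other libraries.

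Among the adaptors, *GRB2*, which links activated receptors to RAS, was the highest, at 34.5 and 36.8 FPKM for TH, 26.7 and 25.9 for TL, 31.1 and 35.7 for YH, and 44.0 and 35.8 for YL. Both TL libraries were the lowest of the 8. The log2 difference between TL and YL was -0.58 ± 0.21 (SE; limma adjusted p = 0.478), and without YL2 it was -0.72.

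*IRS1*, the main docking protein of the insulin receptor (chromosome 15, 142086244 to 142089969), was at 1.40 and 2.09 FPKM for TH, 2.94 and 3.94 for TL, 3.56 and 3.20 for YH, and 2.88 and 3.44 for YL. The TH libraries were the lowest of the 8 and overlapped no other group. The log2 difference was -0.68 ± 0.23 (SE; limma adjusted p = 0.242) from YH and -0.70 ± 0.23 (SE; limma adjusted p = 0.333) from TL. *SHC1*, an adaptor toward the ERK branch, was at 5.01 to 8.12 FPKM, both in TH. *IRS2* and *IRS4* were not analysed here, and an unnamed row that the table of gene names gives as *SOS1*, the exchange factor behind GRB2, was at 0.963 FPKM in TH1 to 3.13 FPKM in YL2.

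Among the brakes on the receptor, *GRB10*, which binds the insulin receptor and dampens it, was the highest at 22.3 and 19.3 FPKM for TH, 13.7 and 16.4 for TL, 14.2 and 14.6 for YH, and 18.0 and 8.37 for YL. Both TH libraries were the highest of the 8. *SOCS3*, a cytokine-induced inhibitor of receptor signaling, was at 5.35 and 7.63 FPKM for TH, 2.21 and 1.19 for TL, 2.23 and 7.42 for YH, and 3.11 and 1.69 for YL, on 9 to 68 reads. It was higher in TH than in TL by 1.48 ± 0.49 on the log2 scale (SE; limma adjusted p = 0.327), and its YH libraries stood apart from each other. Averaged over both breeds, the highland minus lowland difference of *SOCS3* was 1.06 ± 0.34 (SE; limma adjusted p = 0.559). The row named *SOCS2* was at 4.11 to 8.95 FPKM, but the table of gene names gives its identifier to *CRADD*, so its identity is uncertain. *CBL*, a ubiquitin ligase, was at 0.0433 to 1.24 FPKM and below the level tested.

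Downstream of the adaptors, *AKT2*, the AKT isoform of insulin-responsive glucose uptake (chromosome 6, 44331702 to 44378138), was among the steadiest members. It was at 22.5 and 21.9 FPKM for TH, 23.0 and 23.5 for TL, 23.6 and 24.2 for YH, and 23.2 and 19.4 for YL, with a CV of 6.5%. Its log2 difference between TH and YH was -0.10, with a 95% interval of -0.55 to 0.36, so a change of 1 on the log2 scale lay outside the interval. *AKT1* was not analysed here, and the levels of the 2 isoforms could not be compared.

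The subunits of PI3K were low. Of the catalytic subunits, *PIK3CA* was at 2.81 to 4.19 FPKM, *PIK3CB* at 0.6998 to 3.98 FPKM and *PIK3CD*, the leukocyte form, at 0.206 to 0.803 FPKM. *PIK3R1*, the main regulatory subunit (ENSSSCG00000016958), was at 0.268 and 0.424 FPKM for TH, 0.779 and 1.20 for TL, 0.780 and 2.01 for YH, and 1.12 and 2.09 for YL. Its TH libraries were the lowest of the 8, with a log2 difference from YH of -0.78 ± 0.33 (SE; limma adjusted p = 0.306). It was -0.41 without YH2, and the row had 3 and 4 reads in TH and at most 37 in any library. *PDPK1*, the kinase that activates AKT, was at 0.697 FPKM in TH1 and 1.67 to 3.28 FPKM in the other libraries. *PIK3R3* ran from 1.27 FPKM in YL2 to 3.60 FPKM in YL1.

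*PIK3R2*, another regulatory subunit, was high in a single library, at 9.11 FPKM in YL2 and 1.21 to 2.28 FPKM in the other 7. The log2 difference between TL and YL was -0.71 ± 0.58 (SE; limma adjusted p = 0.760), and without YL2 it was 0.29. Between YH and YL it was -1.11 ± 0.58 (SE; limma adjusted p = 0.784), and -0.11 without YL2. YL2 is the library with the kidney list at 4959 FPKM. *DEPTOR* was the other member more than 2 times as high in YL2 as in every other library, at 4.80 FPKM against 0.450 to 1.65 FPKM; 6.48% of all genes tested were.

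**Figure D2:**
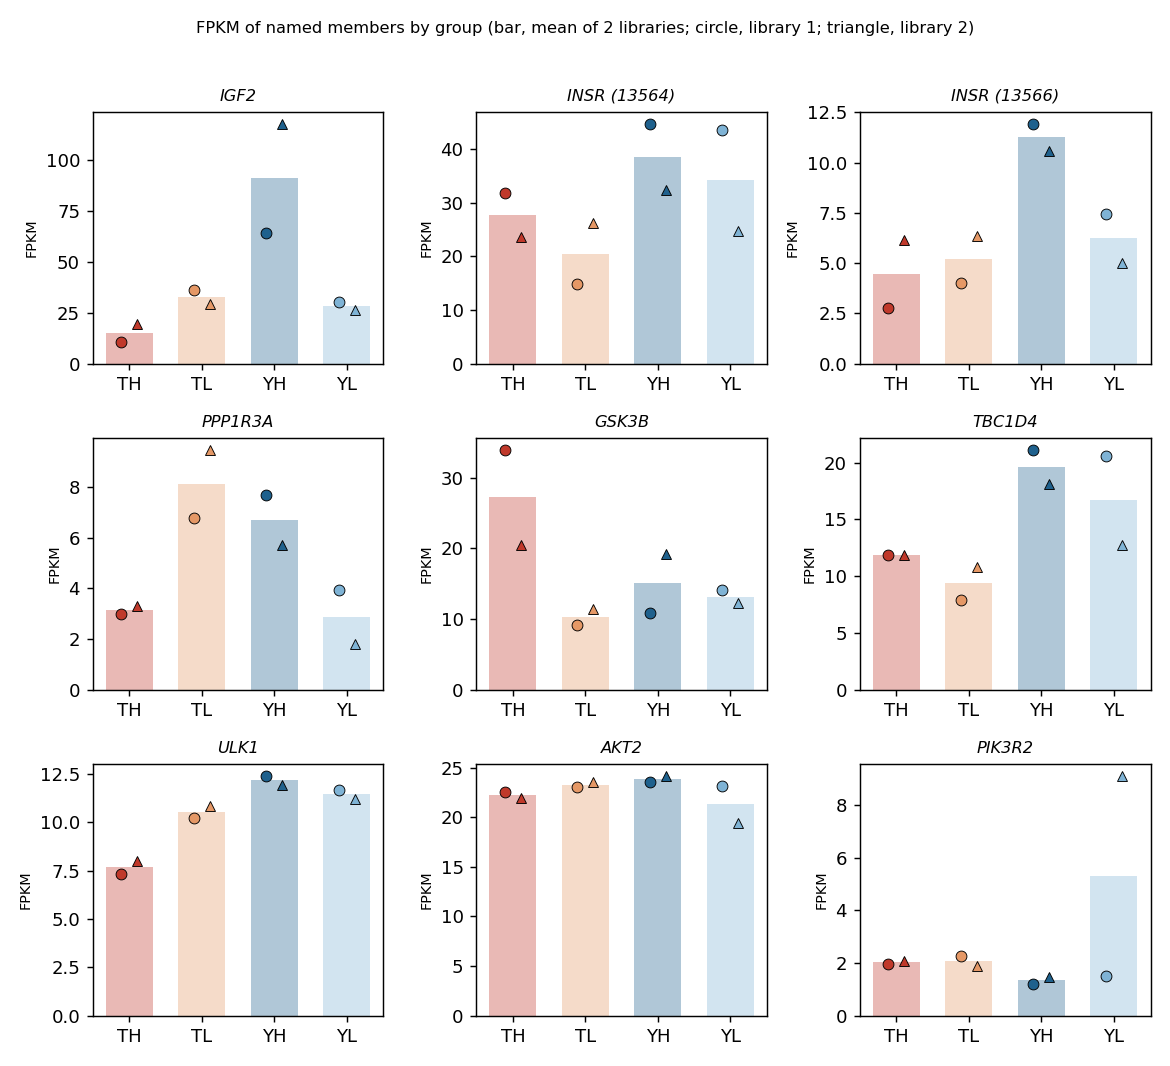
FPKM of 9 member rows in the groups TH, TL, YH and YL; bars are means of 2 libraries, circles library 1 and triangles library 2. *IGF2* is at 64.0 and 118 FPKM for YH, above every other library, *PPP1R3A* is higher in TL and YH than in TH and YL, and *PIK3R2* is high in YL2 alone at 9.11 FPKM.

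Of the 6 rows of effectors on the side of glucose and glycogen, 5 were lower in TH than in YH and did not overlap between the groups, against 27.3% of all genes that were lower without overlap. These 5 include both rows of *TBC1D1*, the lower of them on 2 to 30 reads. They also include *GSK3A*, whose groups were apart by little, at 21.2 FPKM in TH2 and 21.3 FPKM in YH1. The median log2 difference of the 6 was -0.74 and kept its sign under each scaling tried, at -0.82 with median ratios, but it was -0.28 without TH1. *PPP1R3A*, which tethers protein phosphatase 1 to glycogen in striated muscle (chromosome 18, 34430772 to 34468824), was at 2.99 and 3.30 FPKM for TH, 6.78 and 9.47 for TL, 7.69 and 5.69 for YH, and 3.92 and 1.79 for YL. The 4 libraries of TL and YH were above the 4 of TH and YL, without overlap. It was thus higher in the lowland among Tibetan and in the highland among Yorkshire pigs.

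All 4 comparisons of *PPP1R3A* had an unadjusted p under 0.05, and none passed the test. The log2 difference was 1.28 ± 0.32 between TL and YL (SE; limma adjusted p = 0.301) and -0.88 ± 0.32 between TH and YH (SE; limma adjusted p = 0.263). It was -1.12 ± 0.32 between TH and TL (SE; limma adjusted p = 0.297) and 1.04 ± 0.32 between YH and YL (SE; limma adjusted p = 0.763). The interaction was -2.16 ± 0.46 (SE; limma adjusted p = 0.273), and it was -1.76 without YL2. These comparisons share their libraries and are not independent of each other. Without YL2 the difference between TL and YL was 0.88 and that between YH and YL 0.63, with an unadjusted p of 0.0659 by limma.

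*GSK3B*, which phosphorylates and restrains glycogen synthase (chromosome 13, 149430809 to 149702182), was at 34.0 and 20.4 FPKM for TH, 9.10 and 11.5 for TL, 10.9 and 19.3 for YH, and 14.1 and 12.3 for YL. Both TH libraries were the highest of the 8. The log2 difference between TH and TL was 1.29 ± 0.35 (SE; limma adjusted p = 0.268) and 0.93 without TH1, and between TH and YH it was 0.82 ± 0.35 (SE; limma adjusted p = 0.309), 0.47 without TH1 and 0.43 without YH1. Its paralog *GSK3A* was at 20.3 and 21.2 FPKM for TH, 20.8 and 22.6 for TL, 21.3 and 24.2 for YH, and 21.9 and 23.7 for YL, with a CV of 6.4%. Within a library *GSK3B* was 1.67 and 0.966 times *GSK3A* in TH and 0.437 to 0.795 times elsewhere.

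*TBC1D4*, the Rab regulator that holds glucose transporter vesicles back until AKT phosphorylates it, was at 11.9 and 11.9 FPKM for TH, 7.89 and 10.8 for TL, 21.1 and 18.1 for YH, and 20.6 and 12.8 for YL. All 4 Tibetan libraries were below all 4 Yorkshire libraries. The breed difference averaged over both places was -0.71 ± 0.20 on the log2 scale (SE; limma adjusted p = 0.201). It was -0.68 ± 0.28 in the highland (SE; limma adjusted p = 0.302) and -0.75 ± 0.28 in the lowland (SE; limma adjusted p = 0.487), where it was -1.08 without YL2 and -0.43 without YL1. Only *TBC1D4* and *ULK1* among the 50 members separated the breeds in this way (4.0%), and 8.03% of all genes tested did so. The early-response list separated the breeds too, with the Tibetan libraries on the higher side. The related *TBC1D1* has a row at 2.14 to 10.7 FPKM (ENSSSCG00000028983) and a short row of 492 bp at 0.184 to 3.45 FPKM.

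Between TH and YH the 9 rows of TSC, RHEB and the mTOR complexes had a median log2 difference of 0.07, with 7 higher, and 5 higher with libraries scaled by median ratios. Without TH1 the median was -0.01, with 4 higher and 5 lower. *MTOR*, the kinase of both complexes, was at 6.94 and 6.11 FPKM for TH, 5.94 and 5.95 for TL, 6.22 and 6.10 for YH, and 5.97 and 4.64 for YL, and apart from TH1 and YL2 its libraries lay between 5.94 and 6.22 FPKM. Its log2 difference between TH and YH was 0.07, with a 95% interval of -0.41 to 0.55. *RPTOR*, which defines mTOR complex 1, was at 6.91 to 10.4 FPKM, both in TH. *RICTOR*, which defines complex 2, was at 0.179 to 1.20 FPKM, and within every library *RPTOR* was at least 5.74 times *RICTOR*.

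*MLST8*, a subunit of both complexes, was at 7.71 and 4.57 FPKM for TH, 3.93 and 3.96 for TL, 4.34 and 5.14 for YH, and 3.18 and 3.20 for YL. All 4 highland libraries were above all 4 lowland libraries. The highland minus lowland difference averaged over both breeds was 0.47 ± 0.18 on the log2 scale (SE; limma adjusted p = 0.632) and 0.31 without TH1. Such a separation by place was found for 2 members, *MLST8* and *MTOR* (4.0%), and for 2.69% of all genes tested. For *GSK3B* the same average was 0.71 ± 0.25 (SE; limma adjusted p = 0.584), with overlapping libraries.

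*AKT1S1*, or PRAS40, an inhibitor of mTOR complex 1 that AKT releases, was at 82.8 and 47.9 FPKM for TH, 49.9 and 41.3 for TL, 34.7 and 37.2 for YH, and 44.2 and 28.6 for YL. TH1 was far above the rest, and the log2 difference between TH and YH was 0.79 ± 0.33 (SE; limma adjusted p = 0.308) and 0.40 without TH1. *TSC2* and *TSC1*, the complex that keeps RHEB off, were at 4.71 to 8.09 and 2.42 to 3.75 FPKM. *TSC2* was 1.53 to 2.46 times *TSC1* within a library.

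Among the S6, RSK and ERK kinases, *RPS6KB1*, the S6 kinase that mTOR complex 1 activates, had a CV of 5.2%, the lowest of the members over 8 libraries; without YL2, *AKT2* was lower at 3.2%. It was at 5.58 and 4.92 FPKM for TH, 5.64 and 5.14 for TL, 5.38 and 5.69 for YH, and 5.47 and 5.73 for YL, with a log2 difference between TH and YH of -0.07 and a 95% interval of -0.51 to 0.38. *RPS6KB2*, its paralog, was at 5.76 FPKM in TH2 and 8.52 to 10.8 FPKM in the other libraries. *MAPK3*, or ERK1, was the highest of these kinases at 19.0 and 18.7 FPKM for TH, 17.0 and 18.4 for TL, 14.7 and 18.4 for YH, and 13.7 and 13.4 for YL, with both YL libraries the lowest. Of the RSK kinases, *RPS6KA3* was at 4.04 to 9.10 FPKM and *RPS6KA1* at 0.557 to 2.87 FPKM.

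Of the 12 rows of AMPK, its activators and ULK, 9 were lower in TH than in YH, with a median log2 difference of -0.34, which was -0.45 with median ratios, -0.32 with scaled reads and -0.24 without TH1. The interaction was negative for 11 of the 12 rows (50.5% of all genes), and for 10 without TH1 and for 10 without YL2. Its median over these rows was -0.50, and it was -0.41 without TH1 and -0.26 without YL2. Over all genes the median of the interaction was -0.0067, and -0.065 without YL2. Between TL and YL the median of these rows was 0.25, and -0.12 without YL2. *PRKAA1* and *ULK2* count with 2 rows each. *STK11*, or LKB1, the kinase that activates AMPK, was the highest at 54.7 and 42.5 FPKM for TH, 44.7 and 50.2 for TL, 40.9 and 41.8 for YH, and 49.3 and 31.5 for YL. *STRADA*, its activating partner, was at 2.80 to 5.15 FPKM.

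Of the catalytic subunits, *PRKAA2*, the main form in striated muscle, was at 14.2 and 13.6 FPKM for TH, 17.5 and 13.5 for TL, 21.6 and 21.8 for YH, and 19.8 and 8.25 for YL. YH was above TH and TL, and YL2 was the lowest. The larger row of *PRKAA1*, the ubiquitous form, was at 4.51 and 3.72 FPKM for TH, 3.12 and 2.52 for TL, 3.20 and 1.85 for YH, and 3.11 and 4.96 for YL. *PRKAA2* was 1.66 times that row in YL2 and 3.14 to 11.8 times in the other libraries. Of the regulatory subunits, *PRKAG1* was at 47.1 and 38.2 FPKM for TH, 43.5 and 41.2 for TL, 41.9 and 46.3 for YH, and 36.0 and 26.1 for YL. *PRKAG2*, the nucleotide-binding form known from an inherited heart glycogen disease, was at 33.6 and 26.0 FPKM for TH, 17.6 and 40.1 for TL, 43.6 and 27.7 for YH, and 31.4 and 14.8 for YL. Their ratio ran from 0.962 to 2.47 with no order by group. *PRKAB1* was at 5.91 to 10.03 FPKM. *PRKAB2*, the beta form of muscle, was at 4.64 and 12.6 FPKM for TH, 6.11 and 7.79 for TL, 10.196 and 13.5 for YH, and 5.35 and 4.10 for YL, with a log2 difference of 1.16 ± 0.42 between YH and YL (SE; limma adjusted p = 0.784).

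*ULK1*, the kinase that AMPK turns on and mTOR turns off (chromosome 14, 24875186 to 24913201), was at 7.34 and 8.01 FPKM for TH, 10.22 and 10.9 for TL, 12.4 and 11.95 for YH, and 11.7 and 11.2 for YL. The 2 libraries of each group lay close together, and all 4 Tibetan libraries were below all 4 Yorkshire libraries. The log2 difference was -0.61 ± 0.18 between TH and YH (SE; limma adjusted p = 0.202) and -0.36 ± 0.13 for the breed average (SE; limma adjusted p = 0.302). *ULK2* has 2 rows, of which ENSSSCG00000018045 was at 24.0 and 19.9 FPKM for TH, 29.0 and 28.2 for TL, 26.7 and 29.3 for YH, and 33.9 and 17.1 for YL. The other, ENSSSCG00000024356, was at 2.79 and 7.51 FPKM for TH, 13.9 and 12.7 for TL, 13.3 and 18.2 for YH, and 14.6 and 8.08 for YL. For this row the log2 difference was -1.54 ± 0.44 between TH and YH (SE; limma adjusted p = 0.188) and -1.33 ± 0.44 between TH and TL (SE; limma adjusted p = 0.327), and without TH1 these were -0.96 and -0.75.

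**Figure D3:**
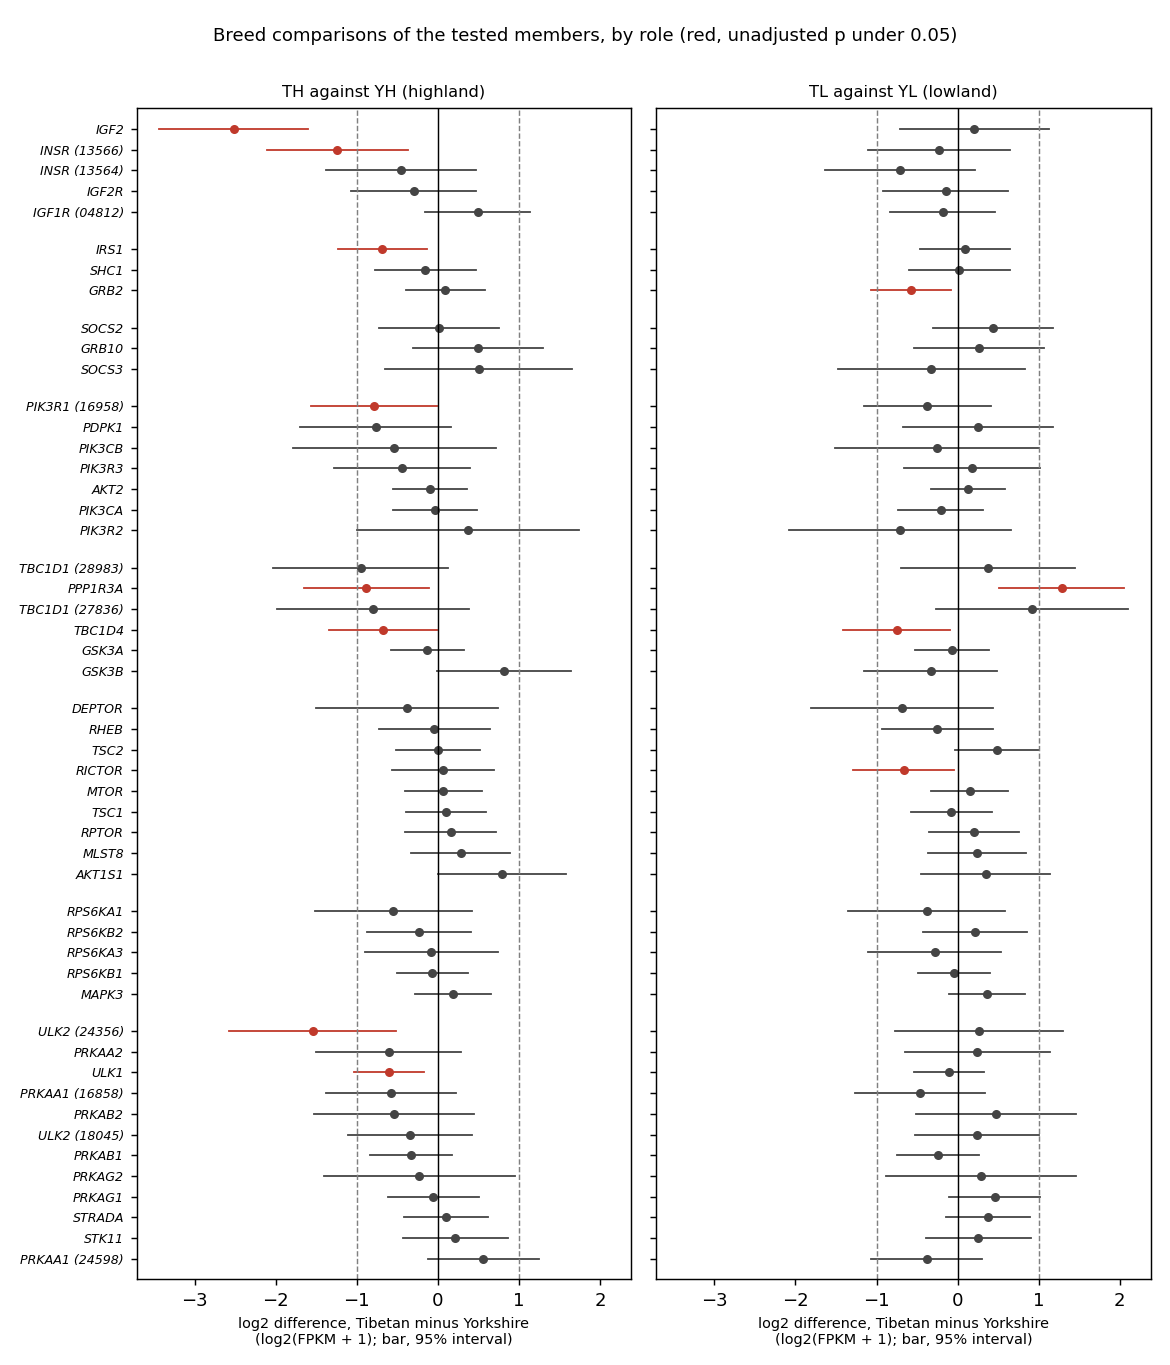
Log2 difference, Tibetan minus Yorkshire, with its 95% interval for the 50 tested member rows by role, in the highland (left) and the lowland (right); dashed lines mark a difference of 1. Red rows have an unadjusted p under 0.05, 8 in the highland, all to the left of 0, and 4 in the lowland, of which *PPP1R3A* lies to the right.

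Where a symbol has 2 rows, their ratio was taken within each library. The first *INSR* row was 11.5 times the second in TH1 and 3.05 to 5.86 times in the other libraries. The first *ULK2* row was 8.62 times the second in TH1 and 1.61 to 2.65 times elsewhere, and for *PRKAA1* the ratio was 22.6 in TH1 and 1.03 to 5.48 elsewhere. In *TBC1D1* the library apart was YL2, at 46.0 against 2.67 to 6.78, and in *PIK3R1* it was also YL2, at 9.11 against 1.40 to 3.71. The lower row had 2 reads in YL2 for *TBC1D1* and 7 reads in TH1 for *PRKAA1*, so these ratios rest on few reads. TH1 was more than 2 times lower than every other library in *DEPTOR*, *PDPK1* and 1 row each of *PRKAA1*, *ULK2* and *TBC1D1*, 5 of the 50 members against 6.44% of all genes tested. It was the lowest library for 17 members (34.0%, against 26.7% of all genes), and YL2 was the lowest for 16 (32.0%, against 22.5%).

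**Figure D4:**
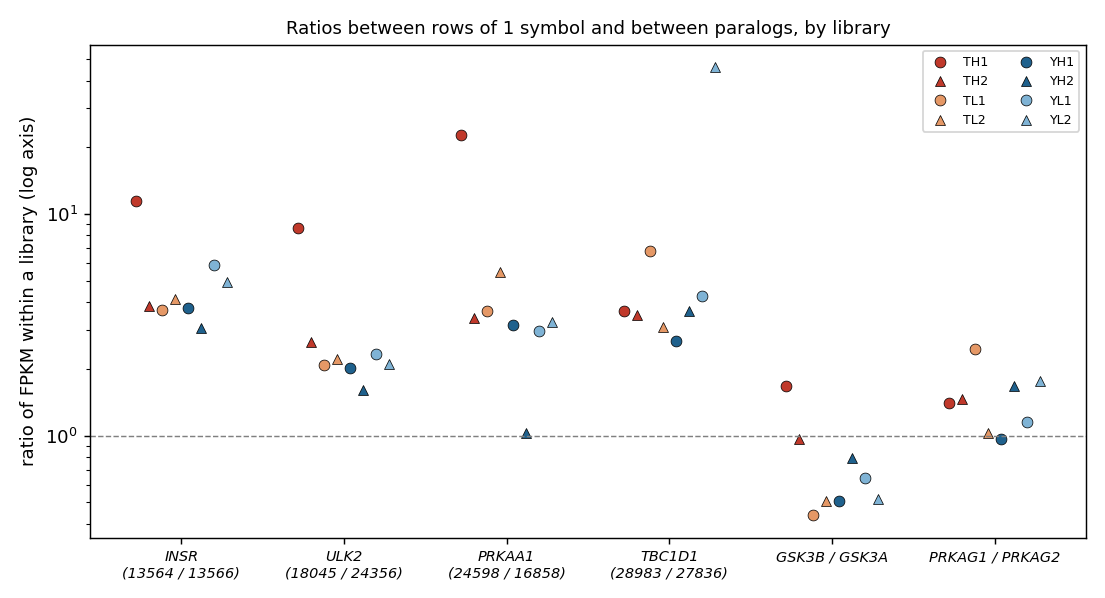
Ratio of FPKM within each library (log axis) between the 2 rows of *INSR*, *ULK2*, *PRKAA1* and *TBC1D1* and between the paralogs *GSK3B* and *GSK3A* and *PRKAG1* and *PRKAG2*. TH1 stands apart for *INSR* (11.5), *ULK2* (8.62) and *PRKAA1* (22.6), YL2 for *TBC1D1* (46.0), and both TH libraries have the highest ratio of *GSK3B* to *GSK3A*.

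The wider pathway was read from a list of 111 further genes, of which 96 were found and 90 rows tested. None was called in any comparison by limma. At an unadjusted p under 0.05, 5 were higher and 10 lower in TH than in YH, 4 higher and 1 lower in TL than in YL, 5 higher and 7 lower in TH than in TL, and 3 higher and 1 lower in YH than in YL. The share was 16.7% between TH and YH, against 16.2% of all genes, and 5.56% between TL and YL, against 8.94%. It was 13.3% between TH and TL, against 11.3%, and 4.44% between YH and YL, against 5.97%. In the interaction 2 were higher and 12 lower (15.6%), against 10.9% of all genes, with 3.78% on the higher and 7.16% on the lower side. That share and the share of all genes lay closer together without TH1, TL1, TL2, YH1, YH2 or YL2, and both rose without TH2 or YL1. With libraries scaled to FPKM sums without mitochondrially encoded genes the share in the interaction was 4.44% (3.07% of all genes). In the breed average the share was 11.1%, against 13.5%, and in the altitude average 5.56%, against 7.22%.

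*SLC2A4*, or GLUT4, the insulin-responsive glucose transporter whose vesicles TBC1D4 restrains, was at 1.28 and 1.97 FPKM for TH, 4.49 and 3.80 for TL, 4.58 and 5.99 for YH, and 1.90 and 1.75 for YL. Like *PPP1R3A*, it was higher in TL and YH than in TH and YL, without overlap. Its log2 difference was -1.26 ± 0.23 between TH and YH (SE; limma adjusted p = 0.0959). *IGFBP2*, which binds insulin-like growth factors, had the opposite order, at 39.6 and 38.8 FPKM for TH, 9.84 and 13.4 for TL, 13.5 and 19.1 for YH, and 30.0 and 40.3 for YL. Its log2 difference was 1.24 ± 0.27 between TH and YH (SE; limma adjusted p = 0.127) and -1.52 ± 0.27 between TL and YL (SE; limma adjusted p = 0.187).

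*EIF4B*, a translation factor that S6 kinase phosphorylates, was at 18.2 and 42.7 FPKM for TH, 53.5 and 54.3 for TL, 76.1 and 103 for YH, and 54.1 and 49.5 for YL, with a log2 difference of -1.63 ± 0.39 between TH and YH (SE; limma adjusted p = 0.152). It was -1.04 without TH1, the lowest library. *PPP1R3C*, a widely expressed glycogen-targeting subunit related to *PPP1R3A*, was at 159 and 142 FPKM for TH, 288 and 249 for TL, 142 and 129 for YH, and 104 and 87.2 for YL. It was higher in TL than in YL by 1.48 ± 0.23 on the log2 scale (SE; limma adjusted p = 0.160). *PIK3R6*, a regulatory subunit of the PI3K that G protein-coupled receptors use, was at 1.65 and 1.97 FPKM for TH, 2.46 and 4.01 for TL, 1.43 and 2.12 for YH, and 0.717 and 0.877 for YL, with a log2 difference of 1.21 ± 0.26 between TL and YL (SE; limma adjusted p = 0.254).

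**Figure D5:**
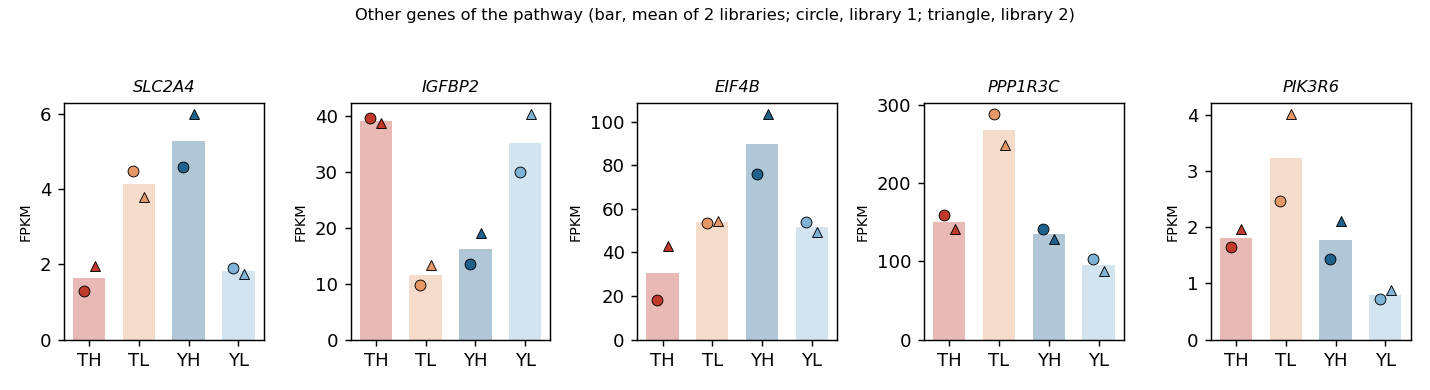
FPKM of 5 further genes of the pathway in the groups TH, TL, YH and YL; bars are means of 2 libraries, circles library 1 and triangles library 2. *SLC2A4* is higher in TL and YH (3.80 to 5.99 FPKM) than in TH and YL (1.28 to 1.97 FPKM), and *IGFBP2* is lower in TL and YH than in TH and YL.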

How the data were processed

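The deposited table of all genes gives 2 values per library and gene: FPKM, made by the authors with Cufflinks, and a scaled read value, a signal that the authors obtained by dividing read counts by a library factor. Per the labels' processing notes, reads were aligned with Bowtie 0.12.5 and TopHat2 2.0.9 to Sscrofa 10.2, and DESeq 1.10.1 was used by the authors. Columns of group means, fold changes and p-values by the authors and the separate group files were not used. Rows were chosen by gene name, and coordinates are those of the file, with the start counted from 1. Read numbers were recovered from the steps of the scaled values, and 99.8% of low values were whole within 0.05.

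FPKM was transformed as log2(FPKM + 1), which understates the change of low genes. Genes at 1 FPKM or more in 2 libraries were fitted with limma 3.58.1 (R 4.3.3), with 1 term per group over all 8 libraries and a variance trend. The breed and altitude averages are means of the 2 differences within place or breed. Scripts were tested on simulated data. The study's methods call the 2 libraries of a group biological replicates, each a pool of pigs, so p-values measure the spread between pools. Groups were taken from the sample titles, since the labels' descriptions of the YL libraries refer to a file of the TL group.

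The members, the lists and the tests were chosen with earlier results of these data known. Values in every library are given for the 3 members with the smallest unadjusted p in each of the 4 comparisons and the 2 averages, the highest member of each role and both members of a paralog pair whose levels are compared, and for up to 3 genes of the wider list in each breed comparison. *PIK3R2*, *MTOR*, *RPS6KB1*, *IRS1*, *ULK1*, *SOCS3*, *PIK3R1*, *GRB10* and others beyond these were named after their values were seen. Alternatives changed the pseudocount, the filter, the scaling, the variance model, the threshold, the samples in the fit and the unit, added a replicate block and left out each library.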

Additional observations from a re-analysis of the deposited data

How the results depend on the processing

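No member was called by limma under any alternative other than the following. With the fold threshold kept and an unadjusted p of 0.01 in place of the adjusted p, 2 members passed between TH and YH (4.06% of all genes), 1 between TL and YL (2.03%), 1 between TH and TL (2.57%), 1 between YH and YL (0.839%), 2 in the interaction (2.85%) and 1 in the breed average (1.91%). Leaving out each library gave 0 to 1 members called between TL and YL and 0 to 1 between YH and YL. The call in both was *PIK3R2* without YL1, where 305 genes (2.56% of all) were called in each comparison, when YL2 stands alone for its group and is assumed to vary like the others (log2 differences -1.72 and -2.12, limma adjusted p = 0.0091 and 0.00462), and its difference between TL and YL was 0.29 without YL2. For *RPS6KB1* between TH and YH the difference was 0.29 with scaled reads and -0.143 to 0.0105 over fits that left out 1 library each. For *MTOR* it was -0.0424 with median ratios, -0.0529 with FPKM sums without mitochondrially encoded genes, -0.0226 with scaled reads and -0.0101 to 0.149 over fits that left out 1 library each, the lowest without TH1. For *IGF2* between TL and YL it was -0.157 with scaled reads. The cause was not tested. Of 718 values of single genes under alternatives, 708 kept their direction and their side of the threshold. No member was called with all libraries in the fit, and leaving out a library of neither group does not change a difference between 2 groups. Many of these values could thus hardly change, and their number does not measure how firm the results are.

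A replicate block, the term for the replicate number, gave 0 members called in every comparison and changed no call. Correlations of deviations between libraries with the same number were -0.0844 to 0.118, so the numbers do not pair the samples. A test of recovered reads with edgeR was planned and not run, because some values did not come out whole, and limma on scaled reads was added after seeing the data; it called 0 members. Depth limits *IGF2*, on 5 to 71 reads, the *PIK3R1* row, on 3 to 37 reads, and the lower rows of *TBC1D1*, on 2 to 30, and *PRKAA1*, on 7 to 74; no detection limit was computed.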
